A study of Mus musculus with 2 samples.

Results

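Cycling satellite cells and myoblasts are the dividing precursors from which injured muscle rebuilds its fibres. They were studied here as droplet barcodes in 2 single-nucleus RNA libraries of mouse tibialis anterior, the shin muscle. The members were chosen by the unique molecular identifiers (UMIs, counted RNA molecules) of named genes. A barcode needed at least 2000 UMIs with at most 5% from mitochondrial genes, at least 1 UMI of Pax7, and at least 2 UMIs of Pax7, Fgfr4, Megf10 and Col19a1 together. It also needed at least 3 UMIs of the 5 proliferation genes Top2a, Mki67, Kif11, Knl1 and Kif15, at most 1 UMI of Ptprc and Pdgfra together, and under 1% of its UMIs from the fibre genes Ttn, Neb, Trdn and Dmd. In all, 1206 of the 23616 barcodes that passed the UMI and mitochondrial limits were members, 780 of 16986 in the library labelled AHRfl/fl and 426 of 6630 in the library labelled AHRmKO.

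Both libraries were made from males, 16 to 20 weeks old, that had chronic kidney disease and were sampled 5 days after the femoral artery was ligated, which cuts blood flow to the leg. AHRfl/fl mice carry Ahr alleles flanked by recombination sites (AHRtm3.1Bra/J), and the labels do not spell out AHRmKO. The labels give both libraries the same cross, to Tg(ACTA1-cre/Esr1*)2Kesr/J, whose drug-inducible Cre is driven by the skeletal actin promoter, a promoter of muscle fibres. Where Cre had acted was not tested. Each group had 1 library, the number of animals behind it is not given, and no test between the groups was possible. Values below are given for the AHRfl/fl library first and the AHRmKO library second, with library names as labelled. The targeted gene Ahr stood at 51.3 and 57.4 CPM, the counts of the gene per 1e6 UMIs summed over the members, but a count over the whole gene from its 3' end does not read the floxed exon, so this level does not check the labels.

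Satellite cells lie between a muscle fibre and its basal lamina and are marked by the transcription factor PAX7. After injury they leave quiescence, divide as myoblasts under MYF5 and MYOD1, and then either return to the pool or exit the cell cycle, switch on MYOG and fuse. A dividing cell passes through S phase, in which licensed origins fire and DNA polymerases copy the genome, and through G2 and mitosis, in which condensin, kinesins and the kinetochore pack and separate the chromosomes.

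Members held 4233633 and 2754467 UMIs, with medians of 4892.5 and 4866.5 UMIs and 2712.5 and 2605 genes per barcode. They shared no barcode between the libraries, and 4 members of one library lay among the barcodes past the limits in the other. Leaving out the barcodes with the highest doublet scores, as an alternative, removed 24 and 3 members. The share removed was set in advance at 0.4% per 1000 barcodes. It came to 6.87% and 2.67% of the barcodes past the limits, so these counts do not measure doublets. Barcodes with 200 up to 500 UMIs, called small barcodes here and used as a reference for free RNA, were compared throughout, as were cycling leukocytes (568 and 328 barcodes with at least 2 UMIs of Ptprc, the same proliferation cut, none of the 4 satellite genes and under 1% fibre genes). The sarcomere genes of the leukocytes, which these cells should lack, reached 12.4% and 9.14% of the level in the small barcodes. Of 14917 genes with at least 10 UMIs over the members of both libraries, 2447 overlapped a gene on the opposite strand with more UMIs. Of these, 1155 (47.2%) were 2-fold or more lower in the AHRmKO library, against 10.6% of the 12470 others, and whether counting used strand is not given in the sources used here, so all such genes are uncertain.

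The rule genes describe the members and test nothing. Pax7 stood at 793 and 871 CPM, Fgfr4, a fibroblast growth factor receptor, at 616 and 579, Col19a1, a collagen, at 622 and 467, and Megf10, a membrane receptor of satellite cells, at 203 and 135. Among the proliferation genes, Top2a, the topoisomerase that untangles chromosomes, stood at 891 and 858 CPM. Knl1, the kinetochore scaffold, had 490 and 578 CPM, and the spindle motors Kif11 and Kif15 had 481 and 487, and 387 and 494 CPM. Mki67, the coat protein of mitotic chromosomes, was the rule gene that differed most between libraries, at 371 and 787 CPM. The markers of the label, Pax7, Top2a, Kif11 and Knl1, are all rule genes, so their levels here do not check it.

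Members made up 32.6% (30.8 to 34.6) of the 2390 barcodes in the AHRfl/fl library that passed every part of the rule except the proliferation part, and 57.6% (53.9 to 61.2) of 740 in the AHRmKO library. Intervals on shares are exact Clopper-Pearson intervals at 95%, and all intervals cover counting error only. The difference was 24.9 percentage points (Newcombe interval 20.9 to 28.9), and with every barcode thinned to 2000 UMIs the shares were 24.2% and 47.0%. Other limits of the rule took different shares of the libraries. Without the mitochondrial limit, 254 and 235 further barcodes would have joined. The limit on Ptprc and Pdgfra took 354 of 1203 and 105 of 736 barcodes that had passed the UMI, mitochondrial, satellite and proliferation parts. The fibre limit then took 69 and 205, of which 63 and 167 had 1 to 3% fibre genes. The part of these limits in the difference was not tested.

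Near the proliferation cut, barcodes changed in genes that the rule did not count. The 133 and 43 barcodes with 2 proliferation UMIs, just outside, had medians of 4 and 5 UMIs over 47 S-phase genes and of 4 and 4 over 53 G2/M genes. The 48 and 24 barcodes with 3, just inside, had medians of 15 and 9 S-phase UMIs and of 7.5 and 5 G2/M UMIs. The 180 and 179 barcodes with 20 or more had 16.5 and 28 S-phase and 70 and 87 G2/M UMIs, at higher depth (medians of 6702.5 and 7177 UMIs).

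**Figure D1:**
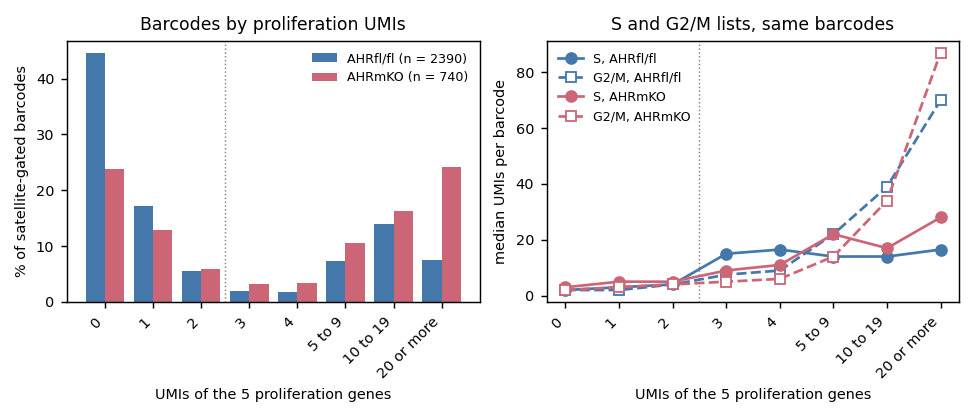
Left, percent of satellite-gated barcodes (those passing every part of the rule except the proliferation part) by UMIs of the 5 proliferation genes, for each library. Right, median UMIs of the S-phase list (filled circles) and the G2/M list (open squares) in the same barcodes. Members lie right of the dotted line, and barcodes with 20 or more such UMIs numbered 180 and 179.

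G2/M genes exceeded S-phase genes in most members. The S-phase list summed to 3331 and 4254 CPM and the G2/M list to 7694 and 9031 CPM, so that S-phase UMIs were 30.2% (29.8 to 30.6) and 32.0% (31.5 to 32.5) of both. In the AHRfl/fl library 589 of 780 members (75.5%, 72.3 to 78.5) had more G2/M than S-phase UMIs, and in the AHRmKO library 291 of 426 (68.3%, 63.7 to 72.7) did. Cycling leukocytes gave 73.6% and 62.5%. The calls of 34 and 21 members rested on a difference of at most 1 UMI, and the proliferation genes of the rule are themselves late-cycle genes, so these shares are not those of phases in the tissue.

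Lineage genes were compared across that division. Pax7 and Fgfr4 are rule genes, and each member holds a Pax7 UMI by selection, so only their levels are described. After thinning to 2000 UMIs, 187 and 126 members had an S-phase majority and 568 and 289 a G2/M majority. Pax7 was at 774 CPM (719 to 832, exact Poisson interval) in S-majority and 796 (765 to 827) in G2/M-majority members of the AHRfl/fl library. In the AHRmKO library it was at 1005 (929 to 1085) and 834 (795 to 874). Myf5 was at 45.6 and 56.4 CPM in the first library and at 65.0 and 55.7 in the second, with overlapping intervals. The transcriptional repressor E2f7, which shuts down E2F targets in S phase and is in neither phase list, was higher in S-majority members, at 211 against 119 CPM and 187 against 137 CPM. Kif11, a rule gene, stood at 246 against 558 and 175 against 594 CPM.

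**Figure D2:**
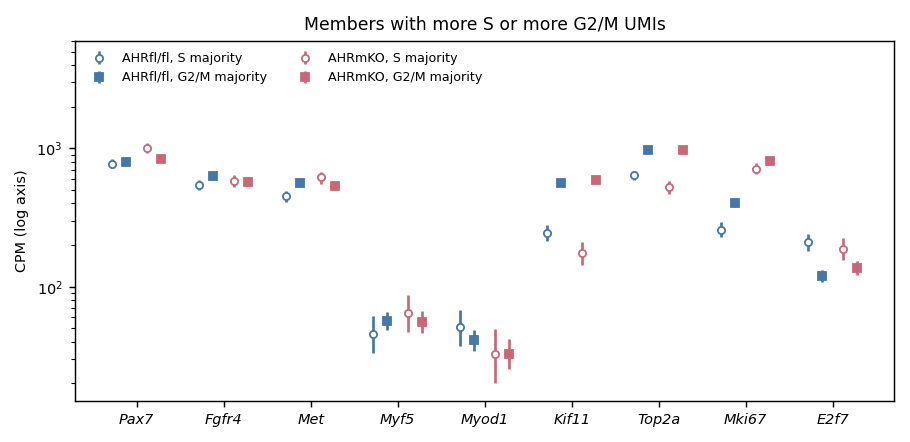
CPM on a log axis of lineage genes (Pax7, Fgfr4, Met, Myf5, Myod1) and cycle genes in members with an S-phase majority (open circles) and a G2/M majority (filled squares), per library. Bars are exact Poisson intervals at 95% of the summed UMIs, and Kif11 and E2f7 differ in opposite directions between majorities. Pax7, Fgfr4, Kif11, Top2a and Mki67 are rule genes.

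The promoters of the rule's proliferation genes, and that of the replication helicase gene Mcm6, are shown because short motifs in such promoters are known from cell cycle genes. Each line gives the 120 bases before the RefSeq start (GRCm38), read 5′ to 3′ on the gene's strand, with capitals for 3 motifs searched on both strands. These are the cell cycle homology region CHR (TTTGAA or TTCGAA), read by the DREAM and MYB-MuvB complexes, the CCAAT box bound by NF-Y, and an E2F site (TTTCCCGC, TTTCGCGC, TTTGCCGC or TTTGGCGC).

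Top2a promoter, chr11:99024190-99024309, minus strand: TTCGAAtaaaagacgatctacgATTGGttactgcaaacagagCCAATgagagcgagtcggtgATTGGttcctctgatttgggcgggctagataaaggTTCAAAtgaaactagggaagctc

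Kif11 promoter, chr19:37376262-37376381, plus strand: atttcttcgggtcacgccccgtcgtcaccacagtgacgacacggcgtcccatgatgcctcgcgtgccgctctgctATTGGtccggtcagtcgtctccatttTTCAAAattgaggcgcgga

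Mki67 promoter, chr7:135716380-135716499, minus strand: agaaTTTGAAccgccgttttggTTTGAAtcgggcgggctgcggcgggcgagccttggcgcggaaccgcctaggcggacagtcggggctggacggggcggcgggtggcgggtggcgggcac

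Kif15 promoter, chr9:122950961-122951080, plus strand: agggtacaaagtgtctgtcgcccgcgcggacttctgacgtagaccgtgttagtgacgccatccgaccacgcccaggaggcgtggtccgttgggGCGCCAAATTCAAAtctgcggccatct

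Knl1 promoter, chr2:119046999-119047118, plus strand: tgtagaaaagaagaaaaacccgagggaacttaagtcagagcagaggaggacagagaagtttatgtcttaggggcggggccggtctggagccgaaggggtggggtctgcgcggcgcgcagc

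Mcm6 promoter, chr1:128359706-128359825, minus strand: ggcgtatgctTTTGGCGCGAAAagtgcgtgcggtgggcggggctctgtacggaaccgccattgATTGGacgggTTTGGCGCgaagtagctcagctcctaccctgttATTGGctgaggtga

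All 5 rule genes held a CHR match in the whole window of 250 bases before to 50 after the start, that of Knl1 outside the printed bases. Over 3 lists of mitosis genes (kinetochore, kinesins, spindle and cytokinesis), 77 of 90 genes matched 84 windows, of which 55 (65.5%) held a CHR and 60 (71.4%) a CCAAT box. Over all 32851 windows the shares were 19.2% and 37.4%, and over the 14236 windows of genes with at least 10 UMIs in the members 14.4% and 37.4%. Over 3 lists of replication genes (origins, DNA synthesis, repair), 57 of 71 genes matched 65 windows. Of these, 15 (23.1%) held a CHR, 35 (53.8%) a CCAAT box and 19 (29.2%) an E2F site. For E2F the shares were 2.26% of all windows and 3.74% of those of genes measured in the members. CHR and CCAAT matches overlapped in 48 windows, CCAAT and E2F in 5, and CHR and E2F in 0. A match is a description of sequence. Over non-cycling barcodes, mitosis genes with a CHR (51) had median log2 ratios of 3.73 and 4.37 and those without (26) 2.94 and 3.46, a contrast the rule used, and their median ratios between libraries were 0.07 and 0.06.

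Levels of members were next set against the 1065 and 176 barcodes that passed the other parts of the rule with no proliferation UMI, called non-cycling here. This contrast is the rule's own, so its values describe the members. The log2 ratio used throughout has 0.5 CPM added to both sides, which understates low genes, and a gene counts as called past 2-fold. Over all genes with at least 10 UMIs, 5.64% were 2-fold or more higher and 3.81% lower in members than in non-cycling barcodes of the AHRfl/fl library, and 10.4% and 8.61% in the AHRmKO library, where the non-cycling barcodes held fewer UMIs (789127 against 4012449). Of 235 genes in 11 proliferation lists, 181 were 2-fold or more higher in members in both libraries. No share of all genes was counted for both libraries at once.

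The machinery of mitosis stood furthest above the non-cycling barcodes. The 5 proliferation genes of the rule are late-cycle genes, so the order of the lists is not independent of the selection. Barcodes in S phase can fall among the non-cycling ones, which held up to 47 and 61 S-phase UMIs (medians 2 and 3). All 11 mitotic kinesins were past 2-fold in both libraries, with a median log2 ratio of 4.25 in the AHRfl/fl library. Kif4, the chromosome-arm motor, had 248 and 255 CPM in members against 7.23 and 5.07 CPM. All 42 spindle and cytokinesis genes were also past 2-fold in both, with a median of 3.68 in the AHRfl/fl library, among them Anln, the actin-binding scaffold of the cleavage furrow, at 362 and 460 CPM against 18.7 and 11.4. The formin Diaph3 was at 814 and 716 CPM against 39.4 and 59.6. Of 37 kinetochore and checkpoint genes, 37 and 34 were past 2-fold, with Cenpp, a centromere protein, at 762 and 577 CPM against 78.8 and 50.7, and Hjurp, the chaperone that deposits the centromeric histone, at 354 and 563 against 79.5 and 199. In the AHRmKO library some of these genes had no UMI in the non-cycling barcodes. With such genes set to the bound that 3 counts allow, the medians there were 4.79 for kinesins, 3.64 for spindle genes and 3.28 for kinetochore genes.

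Genes of origins and DNA synthesis stood less far above the non-cycling barcodes. Of 31 DNA synthesis genes, 24 and 27 were past 2-fold (medians 1.47 and 1.83), and of 19 origin genes 9 and 15 (medians 0.91 and 1.48). Pola1, the catalytic subunit of DNA polymerase alpha, was at 445 and 421 CPM against 96.9 and 117, and Cdc7, the kinase that fires origins, at 90.0 and 124 against 9.72 and 19.01. Mcm6 was at 65.4 and 66.4 against 34.6 and 45.6. Of 21 repair genes, 18 and 18 were past 2-fold, with medians of 2.96 and 2.72 that lie nearer to the kinetochore list than to the other replication lists: the DNA glycosylase gene Neil3 was at 300.5 and 274 CPM against 4.74 and 16.5. The cohesin subunit Stag1 was high outside cycling barcodes (1068 and 871 CPM against 743 and 631), and the condensin subunit Smc4 was at 448 and 627 against 94.95 and 148.

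**Figure D3:**
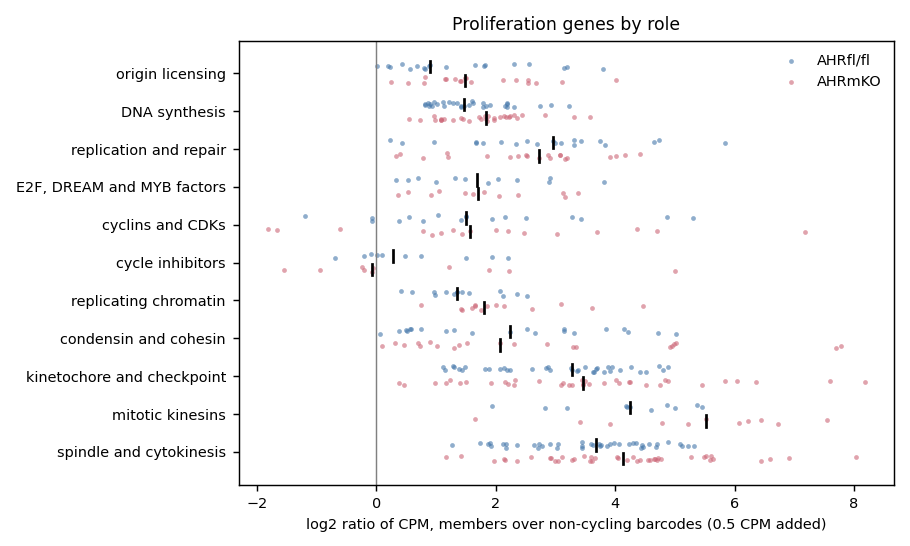
Log2 ratio of CPM of members over non-cycling satellite-gated barcodes for each gene of 11 proliferation lists, with black bars at the medians. Kinesin, spindle and kinetochore genes lie furthest right (AHRfl/fl medians 4.25, 3.68 and 3.27), in a contrast chosen by late-cycle genes. Points of the AHRmKO library past about 6 are genes with no or few UMIs in its non-cycling barcodes.

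Among regulators of the cycle, the D-type cyclins went in different directions. Ccnd3, which drives G1 with CDK4 and CDK6, was lower in members than in non-cycling barcodes, at 471 and 338 CPM against 1073 and 1066, and by proliferation bin it stood lower (535 and 320 CPM at 3 to 9 UMIs, 446 and 342 at 10 or more). Ccnd1 was higher, at 51.5 and 73.0 against 35.1 and 26.6 CPM, and Ccnd2 was near absent, at 3.54 and 1.82 CPM. Cdk6 was at 496 and 548 against 381 and 317. The F-box cyclin Ccnf, at 137 and 171 against 4.24 and 12.7 CPM, is a late-cycle member of the family. The pocket protein Rbl1 (p107) was at 118 and 137 against 25.2 and 29.1 CPM, whereas Rb1 itself was at 233 and 184 against 218 and 193.

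Outside the lists, the 15 genes furthest above non-cycling barcodes in both libraries were Pif1, Ankle1, Dlgap5, Melk, Efcab11, Parpbp, Shcbp1, Prr11, 2010110K18Rik, Lockd, Cip2a, Fam83d, Sapcd2, Ticrr and Knstrn. Several are known cell cycle genes: Dlgap5 (124 and 95.1 CPM against 3.99 and none) binds spindle microtubules, Melk (107 and 117 against 4.24 and 3.80) is a mitotic kinase, and Ticrr (64.7 and 76.6 against 4.98 and 3.80) loads the replicative helicase activator. The noncoding Lockd, which lies beside Cdkn1b, was the most abundant of the 15, at 537 and 282 CPM against 27.9 and 15.2.

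Among the 10 genes furthest below were Kdm5b, P2rx6, Rnf180, Itih5, Rcan2, Csmd1, Kcnma1, Pnrc1 and Sept4. Csmd1, a membrane protein with complement-control repeats, was at 161 and 96.2 CPM in members against 491 and 544. Kdm5b, which removes methyl marks from histone H3 lysine 4, was at 34.2 and 42.8 against 137 and 143. Within the fixed lists, and singled out after their values were seen, Chodl, a satellite cell marker gene of the lectin family, stood at 6.61 and 6.53 CPM against 57.6 and 82.4, Plagl1, an imprinted zinc finger gene, at 29.5 and 29.4 against 122 and 97.6, and Msc, a repressor of myogenic factors, at 28.8 and 15.2 against 63.3 and 41.8. Chodl and Msc are on the list of 18 satellite identity genes, where no other measured gene was 2-fold apart in both libraries.

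Most of the satellite cell identity genes were close to their non-cycling levels. Ncam1, an adhesion molecule, was at 2000.2 and 1568 CPM against 2106 and 1767, Notch3 at 857 and 743 against 1014 and 929, and Itga7, a laminin receptor subunit, at 367 and 437 against 401 and 474. The Notch target Heyl was at 131 and 117 against 219 and 214 CPM. Met, the hepatocyte growth factor receptor, was at 536 and 557 CPM against 496 and 553, and 85.9% and 84.0% of members had a Met UMI, against 10.2% and 9.76% of cycling leukocytes at median depths of 4142 and 4944.5 UMIs. Differences between members and non-cycling barcodes were larger for the surface proteoglycan Gpc6, the most abundant growth factor co-receptor of its list, at 2418 and 1903 CPM against 1325 and 1076, and for Cd44, the hyaluronan receptor, at 438 and 717 against 283 and 480. Cd44 was as high in cycling leukocytes (566 and 871 CPM), Gpc6 was not (114 and 41.0 CPM). In the AHRmKO library Gpc6 was at 1025 CPM in the 127 members with 3 to 9 UMIs of the proliferation genes, level with non-cycling barcodes, and at 2118 in the 299 with 10 or more, while the AHRfl/fl values were 2095 and 2547.

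The myogenic factors were set beside cycling leukocytes, which should lack them, and beside the small barcodes, whose RNA was not shown to be free RNA only. Myog, which starts differentiation, was at 72.8 and 10.5 CPM in members, against 73.8 and 7.49 in cycling leukocytes and 549 and 80.3 in small barcodes. A Myog UMI was found in 30.9% (27.7 to 34.3) and 5.87% (3.83 to 8.54) of members and in 29.9% and 5.18% of cycling leukocytes, so the share of members did not exceed that of leukocytes beyond the counting intervals in either library. Non-cycling barcodes held Myog at 86.7 and 21.5 CPM. Mymk, the fusion protein myomaker, stood at 76.8 and 21.8 CPM, against 67.1 and 7.93 in cycling leukocytes.

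Myf5 gave another picture in both libraries, and Myod1 in the AHRmKO library only. Myf5 was at 54.3 and 57.0 CPM, against 5.30 and 0.882 in cycling leukocytes, and 23.2% (20.3 to 26.3) and 25.6% (21.5 to 30.01) of members had a Myf5 UMI against 2.64% and 0.610% of leukocytes. Its log2 ratio between libraries was 0.07 (-0.23 to 0.37). Myod1 was at 45.1 and 32.3 CPM, against 35.3 and 4.85 in cycling leukocytes and 62.6 and 12.7 in non-cycling barcodes. A Myod1 UMI was found in 19.2% (16.5 to 22.2) of AHRfl/fl members and 15.7% (12.8 to 18.9) of AHRfl/fl leukocytes, and in 14.3% (11.1 to 18.01) and 3.35% (1.69 to 5.92) in the AHRmKO library. The intervals of members and leukocytes overlapped in the AHRfl/fl library and did not in the AHRmKO library. Thinned to 2000 UMIs, the Myod1 shares were 8.08% and 7.57% in the first library and 5.16% and 0.915% in the second. The library log2 ratio of Myod1 was -0.48 (-0.86 to -0.11), and with the small-barcode profile subtracted at the leukocyte share it was 1.44, the opposite sign.

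**Figure D4:**
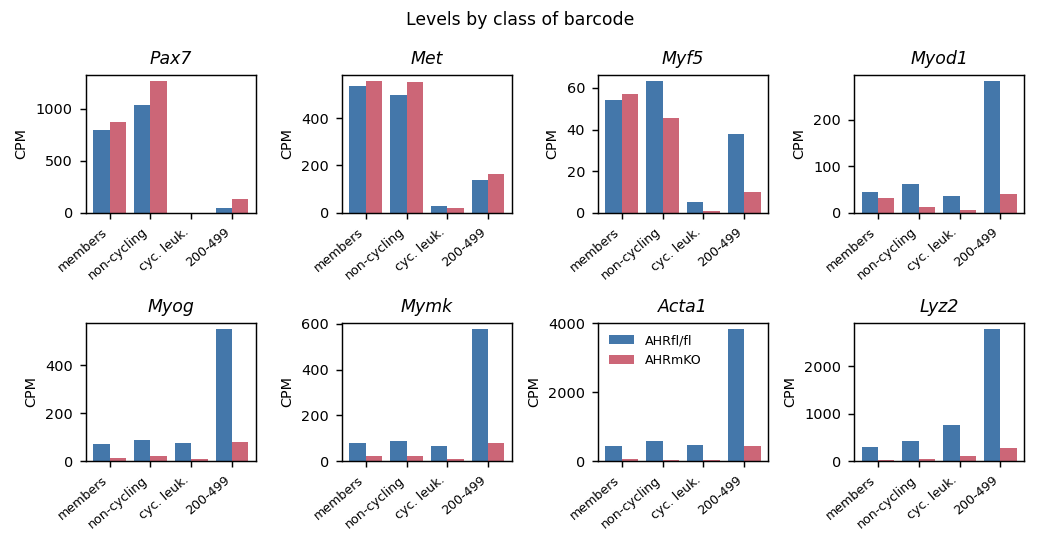
CPM of 8 genes in members, non-cycling satellite-gated barcodes, cycling leukocytes and small barcodes, for each library (each panel has its own axis from 0). Met and Myf5 stand above the leukocytes in both libraries, and Myog, Mymk, Acta1 and Lyz2 are highest in the small barcodes of the AHRfl/fl library. Pax7 was used to choose members, non-cycling barcodes and leukocytes, and the leukocytes have none by selection.

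Genes of commitment and fusion, sarcomere and leukocytes were lower in the AHRmKO library in members and in the small barcodes alike, and the part of free RNA in this was not tested. Of 16 commitment and fusion genes, 9 were 2-fold or more lower in members of the AHRmKO library and 0 higher (median log2 ratio -1.22), and of 20 sarcomere genes 15 were lower (median -1.61), against 16.6% of all genes lower and 5.22% higher. Acta1, the actin of fibres, was at 435 and 47.2 CPM in members and at 478 and 34.4 in cycling leukocytes. The 4 fibre genes of the rule, which it limits, summed to a higher level in the AHRmKO members, at 3207 and 4325 CPM. Of these 4, 1 had a ratio above 0 (median -0.26). With the profile of the small barcodes subtracted at the share found in leukocytes, the medians were 0.62 and 1.90, the opposite sign. The same sarcomere genes set that share, so their median after subtraction is not an independent value. Of the 16 commitment genes, 3 were 2-fold or more above cycling leukocytes in the AHRfl/fl members (median 0.31) and 11 in the AHRmKO members (median 1.46), beside 19.7% and 26.9% of all genes. The 15 leukocyte markers summed to 931 and 260 CPM in members against 6303 and 4886 in cycling leukocytes, with none at 0, and Ptprc was at 38.3 and 25.1 CPM. Of 11 measured fibroblast markers, 3 were 2-fold or more higher and 3 lower than in leukocytes of the AHRfl/fl library (median -0.56), and 6 and 1 in the AHRmKO library (median 2.13). Between libraries 4 of the 11 were lower and 0 higher in members (median -0.91). Lama2 was at 1715 and 1171 CPM, Col1a2 at 615 and 551, and Pdgfra, a gene of the rule, at 7.09 and 3.27. Endothelial markers summed to 58.8 and 87.9 CPM, adipocyte markers to 56.7 and 52.3 with Cidec at 0, and Schwann markers to 24.6 and 28.3 with Sox10 at 0. Mural markers without Notch3 were led by Acta2, at 84.8 and 17.1 CPM, and Kcnj8 was at 0.

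Against cycling leukocytes, which share the proliferation cut, most of the cycle machinery was within 2-fold. Over all genes, 19.7% and 26.9% were 2-fold or more higher in members and 16.2% and 16.8% lower, the AHRfl/fl library first. Of the 235 proliferation genes, 9 were higher and 2 lower in both libraries. The shares of all genes are per library, and none was counted for both at once, so they are not a like background. The 2 lower genes were Ccnd3, at 471 and 338 CPM against 1019 and 790 in leukocytes, and Gas2l3, a cytoskeletal linker of dividing cells, at 94.95 and 90.8 against 246 and 323. Rrm2, the small subunit of ribonucleotide reductase, had 97.1 and 95.8 CPM against 23.3 and 26.4, and Spc24, of the outer kinetochore, 99.7 and 116 against 29.0 and 22.9. Ccnd1 was at 51.5 and 73.0 against 15.5 and 8.38, the checkpoint kinase Chek1 at 21.7 and 46.8 against 6.36 and 18.96, and Mybl1, a MYB family activator, at 57.2 and 95.8 against 22.6 and 41.4. Cdkn2a, the locus of p16 and p19ARF, was low in all classes but higher in members, at 24.8 and 15.6 against 5.30 and 4.41.

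Between the libraries, members differed little in most proliferation genes. Both sets had passed the same proliferation cut, so likeness in genes expressed with the rule genes can come from the selection. Barcodes with 20 or more proliferation UMIs were 180 of 780 and 179 of 426 members. Of 235 genes, 8 were 2-fold or more higher in the AHRmKO library and 4 lower, beside 5.22% and 16.6% of all genes, while 157 lay above 0 (median 0.17). The median over all genes was -0.06. The share of all genes above 0 was not counted, so counts above 0 here have no background. The kinesin, spindle and kinetochore medians were 0.18, 0.14 and 0.06, with 9 of 11, 30 of 42 and 22 of 37 genes above 0. The highest ratio in each of these lists was that of Kif20b, Aspm and Cenpe, and the gene furthest from 0 was Cenpw, a kinetochore gene at 21.5 and 7.62 CPM (-1.44). Aspm, a spindle pole protein, was at 177 and 364 CPM (1.04, 0.90 to 1.18), Kif20b at 209 and 407 (0.96, 0.83 to 1.09), and Cenpe, the kinetochore motor, at 305 and 500 (0.71, 0.60 to 0.83). Of the rule genes, which are not on these lists, Mki67 had a log2 ratio of 1.08 (0.99 to 1.18), Top2a -0.05 and Kif11 0.02. Aspm was at 170 and 286 CPM in cycling leukocytes, and its lowest ratio over the alternatives was 0.94.

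Of replication genes, 3 of 31 for DNA synthesis were 2-fold or more higher (median 0.45), 2 of 21 for repair (median 0.26) and 2 of 19 for origins, where 1 was lower (median 0.17), beside 5.22% of all genes higher. Pold1, the catalytic subunit of polymerase delta, was at 11.3 and 34.5 CPM (log2 ratio 1.56, 1.09 to 2.14), the helicase subunit Mcm5 at 16.5 and 34.9 (1.05), and Brca2, of homologous recombination repair, at 87.9 and 199 (1.17, 0.99 to 1.37). Dnmt1, which copies DNA methylation after replication, was at 76.8 and 152 (0.98, 0.77 to 1.20). In cycling leukocytes the repair median was 0.64 and the DNA synthesis median 0.50. The lowest ratios of the kinetochore and spindle lists were those of Cenpw and of Cdc20, the activator of the anaphase ubiquitin ligase, which was at 56.7 and 33.0 CPM (-0.77). Levels in small barcodes were 25.1 and 4.34 CPM for Cenpw and 62.0 and 5.36 CPM for Cdc20, and the part of free RNA in these ratios was not tested.

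Cdkn2b, the gene of the CDK4 and CDK6 inhibitor p15, was the proliferation-list gene furthest apart between the libraries. Cdkn2b stood at 50.3 and 5.45 CPM, from 213 and 15 UMIs, with a log2 ratio of -3.10 (-4.07 to -2.45) that ranged from -3.91 to -2.40 over the alternatives. A Cdkn2b UMI was found in 21.9% (19.1 to 24.99) and 2.58% (1.30 to 4.57) of members. Cycling leukocytes had it in 2.29% and 0.305%, and small barcodes held 4.34 and 1.09 CPM, so that the AHRfl/fl level lay above both references. Within the AHRfl/fl library members exceeded non-cycling barcodes (17.4 CPM from 70 UMIs), with an interval on the log2 ratio of 1.13 to 1.94. Within the AHRmKO library non-cycling barcodes held 6.34 CPM from only 5 UMIs, and the interval was -1.75 to 1.60. The intervals overlapped, so these counts cannot tell whether the libraries differed in this contrast. Levels were alike in S-majority and G2/M-majority members, at 43.5 and 52.9 CPM in the AHRfl/fl library. Cdkn1c, the imprinted p57 gene, was also lower, at 111 and 36.3 CPM (-1.60), with 92.5 and 3.97 CPM in cycling leukocytes. A Cdkn1c UMI was found in 39.4% (35.9 to 42.9) and 9.86% (7.20 to 13.1) of members. In cycling leukocytes the shares were 34.7% (30.8 to 38.8) and 1.83% (0.674 to 3.94), so the AHRfl/fl intervals overlapped. The part of free RNA in the Cdkn1c ratio was not tested.

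Early response genes, switched on within minutes of a stimulus or of tissue handling, were higher in the AHRmKO library. Of 20 measured genes, 7 were 2-fold or more higher and 1 lower (median 0.80), against 5.22% and 16.6% of all genes. Fos was at 6.14 and 191 CPM (log2 ratio 4.85, 4.39 to 5.59), Fosb at 4.96 and 139 (4.68), Egr1 at 39.7 and 215 (2.42) and Klf4 at 11.3 and 65.0 (2.47). Fos was found in 2.82% (1.78 to 4.24) and 39.4% (34.8 to 44.3) of members. It was also at 25.1 and 265 CPM in cycling leukocytes and at 33.6 and 158 CPM in small barcodes, so the difference in Fos was seen outside the members too. Egr1 differed from Fos in cycling leukocytes, which held 12.4 and 14.99 CPM. Non-cycling satellite-gated barcodes held Egr1 at 48.3 and 302 CPM, and small barcodes at 59.9 and 97.7.

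Genes of ribosome assembly lay mostly above 0. Of 18 measured, 16 did so (median 0.69, against -0.06 over all genes), though the share of all genes above 0 was not counted. Of the 18, 2 were 2-fold or more higher, beside 5.22% of all genes. In cycling leukocytes the list median was -0.01. Nop56, a core protein of the snoRNA particles that modify ribosomal RNA, was at 85.3 and 326 CPM (1.93, 1.76 to 2.12), against 37.8 and 74.1 in leukocytes. Ncl, nucleolin, was at 173 and 300 CPM, against 140 and 107. Within the AHRmKO library 9 of 18 were 2-fold or more higher in members than in non-cycling barcodes (median 1.01, beside 10.4% of all genes), and within the AHRfl/fl library 0 were (median 0.24). Snhg5, a host gene of small nucleolar RNAs outside the list and chosen after its values were seen, was at 48.2 and 159 CPM.

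Targets of p53 were mixed, with 4 of 15 measured genes 2-fold or more higher in the AHRmKO library and 0 lower (median 0.59), beside 5.22% and 16.6% of all genes. In non-cycling barcodes 6 were higher and 0 lower (median 0.65), and in cycling leukocytes 1 was higher and 3 lower (median -0.01). Shares over all genes were not counted for the library ratios of those classes. Plk2 was at 19.1 and 76.6 CPM (1.97, 1.63 to 2.39), Mdm2, which degrades p53, at 125 and 249.4 (0.99), and Sesn1 at 157 and 154 (-0.03). Eda2r was lower, at 78.2 and 39.6 CPM (-0.97). The Mdm2 difference was larger in non-cycling barcodes, at 115 and 509 CPM.

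Of 15 measured imprinted growth genes, 4 were lower and 1 higher past 2-fold, beside 16.6% and 5.22% of all genes. Their median was -0.43, and 0.09 with the small-barcode profile subtracted at the share set by fibre genes (30.5% and 53.6%). Peg3, a paternally expressed zinc finger gene of muscle progenitors, was at 940.1 and 1863 CPM (0.99, 0.93 to 1.05), with a larger difference in non-cycling barcodes (1191 and 3160 CPM) and levels of 64.6 and 32.2 CPM in cycling leukocytes. Igf2r, the receptor that clears IGF2, was at 478 and 143 CPM (-1.74, -1.90 to -1.59). Its opposite-strand neighbour Airn, with 1410 and 1534 CPM, was counted more often, so Igf2r is among the uncertain genes. Grb10, an adaptor of insulin and IGF receptors, was at 904 and 622 CPM (-0.54), and Mest at 729 and 582 (-0.32).

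Of 17 measured satellite identity genes, 1 was past 2-fold (median -0.23), and of 18 of quiescence 2 were (median -0.19), all lower, beside 16.6% of all genes. Calcr, the calcitonin receptor of quiescent satellite cells, was at 21.02 and 5.08 CPM (-1.95, -2.98 to -1.23) with no UMI in cycling leukocytes. Pax3 was at 42.0 and 20.3 (-1.03, -1.51 to -0.61), and its ratio was within 2-fold under some alternatives, -0.89 with 5 CPM added. Nfix, a driver of fetal myogenesis, was at 230 and 403 (0.81, 0.68 to 0.93). Of 17 measured Notch pathway genes, 1 (Jag1) was past 2-fold, at 16.3 and 39.9 CPM (1.27), a share near that of all genes (5.22% higher), and the coactivator Maml3, the most abundant, was at 1590.4 and 1721 (0.11). Of genes outside the lists and singled out after their values were seen, Id3, an inhibitor of myogenic factors, was at 106 and 27.6 CPM (-1.93), and Itm2a at 125 and 34.9 (-1.82), where cycling leukocytes had 19.8 and 2.20, and 27.5 and 2.20 CPM. Small barcodes held Id3 at 125 and 12.7 CPM (-3.26) and Itm2a at 201 and 18.4 (-3.41), in the AHRfl/fl library above the members, and the part of free RNA in both ratios was not tested.

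Of the AHR pathway, 9 of 13 genes were measured and 1 was past 2-fold, lower, beside 16.6% of all genes lower. Ahr itself had a log2 ratio of 0.16 (-0.14 to 0.46), and 19.1% (16.4 to 22.0) and 20.7% (16.9 to 24.8) of members had an Ahr UMI, against 7.22% and 9.45% of cycling leukocytes. Its dimer partner Arnt was at 160 and 122 CPM (-0.40, -0.59 to -0.21), and the target and repressor Tiparp at 116 and 140 (0.27, 0.07 to 0.46). The target Cyp1b1 had 4.72 CPM and no UMI, where 3 counts of the AHRmKO members would be 1.09 CPM. It was at 20.6 and 7.79 CPM in small barcodes, above the level in members.

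**Figure D5:**
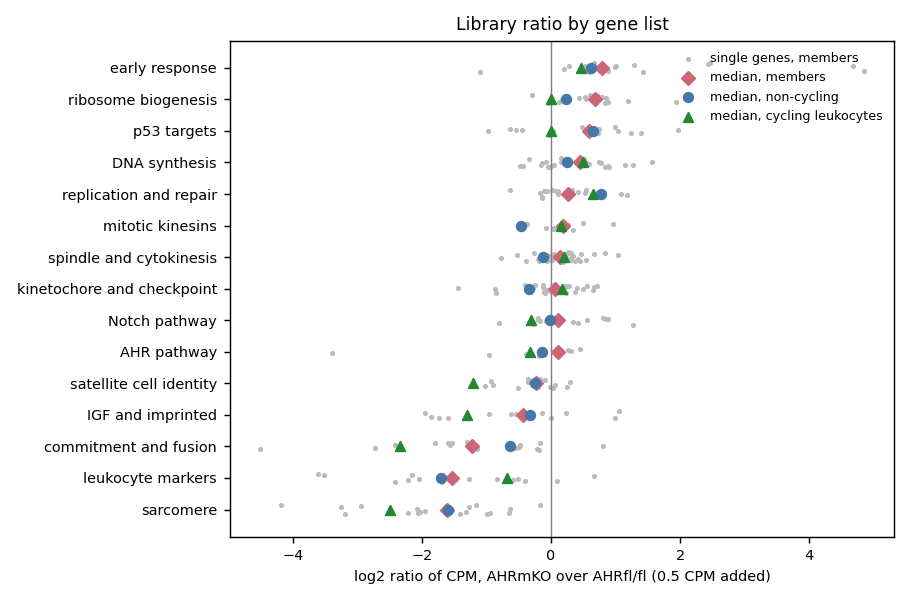
Log2 ratio of CPM, AHRmKO over AHRfl/fl library, for each measured gene of 15 lists in members (grey points) with the list medians in members (diamonds), non-cycling satellite-gated barcodes (circles) and cycling leukocytes (triangles). Early response and ribosome assembly medians lie right of 0 in members (0.80 and 0.69), and commitment, leukocyte and sarcomere medians lie left of 0 in all 3 classes.

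By size alone, over genes that reached 50 CPM and 30 UMIs in whichever library was higher, the 10 highest ratios belonged to Fos, Fosb, Gm17066, Gm42418, Gm19951, Gm42031, Klf4, Camk1d, Egr1 and Rhot2. Gm42418, which overlaps ribosomal RNA sequence, was at 3236 and 24094 CPM in members and at 15544 and 118905 in the small barcodes, and Camk1d likewise at 555 and 3065 against 4093 and 31593. Rhot2, a mitochondrial GTPase, was at 12.99 and 71.9 CPM (2.42), against 10.9 and 22.9 in leukocytes. The 10 lowest ratios were those of Gm26936, Gm28379, Gm16337, Egfros, 5330439A09Rik, Gm42439, C79798, Gm15261, Gm48228 and Gm19710, of which all but Gm48228 overlap an opposite-strand gene with more UMIs. Egfros, which overlaps Egfr, was at 158 and 1.82 CPM. A further selection, made after the values were seen, left out such genes and kept those at least 2-fold over cycling leukocytes in the higher library. Its lowest ratios with a known product included Taf7l, a variant of a general transcription factor subunit, at 52.7 and 1.82 CPM (-4.52), Cntnap2, a neurexin family protein, at 54.1 and 3.99 (-3.60), and the microtubule protein Dcx at 54.3 and 11.6 (-2.18), and its highest were Egr1, Rhot2, Plk2, Zpr1 and Nop56.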

How the data were processed

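Single-nucleus RNA was measured in 2 libraries, 1 per group, so no p-value could be given and no replicate error is known. The deposited matrices hold whole-number counts of UMIs, not normalized by the authors, for every gene in every barcode, per the file headers. Cell Ranger 7.0.1 and mm10 are named in the submitters' processing notes, and whether introns or strand were counted is not given in the sources used here. Library totals were 151788328 and 113737134 UMIs.

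From these counts, members were chosen by the rule in the report and their UMIs were summed per library. CPM and log2 ratios (0.5 CPM added) were computed with Python 3.11.15, NumPy 2.4.6, SciPy 1.17.1 and pandas 2.3.3. Shares over all genes took genes with at least 10 UMIs over both classes compared. List genes needed at least 10 UMIs over the members of both libraries in every comparison. List counts against other classes and the shares beside them therefore use unlike filters. Shares have exact Clopper-Pearson intervals, CPM exact Poisson intervals and ratios exact conditional binomial intervals, all at 95% and for counting error only. A gene was called past 2-fold, which is a size and not a test. Thinning drew 2000 UMIs per barcode. Doublet scores came from Scrublet in scanpy 1.11.5. Barcodes with the highest scores, at a share set by the number of barcodes, were left out only as an alternative. TMM factors came from edgeR 4.0.16. The ratio code was tested on simulated data. Promoters are from RefSeq tables of GRCm38.p6.

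The members and the gene lists were chosen with earlier results of these data known. Genes were named by a rule: genes of the member rule, Myod1, Myf5, Myog and Ahr, the 3 most abundant and the 2 most extreme genes of each list, the 10 highest and 10 lowest library ratios, the 15 highest and 10 lowest against non-cycling barcodes, and the 10 highest and 10 lowest proliferation genes against cycling leukocytes. Other list genes were picked with their values known. Some genes that the rule names are not reported here.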

Additional observations from a re-analysis of the deposited data

Results flagged for a closer look

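Of 143 genes named in the report, 10 had a difference between members and another class of the same library with opposite directions in the 2 libraries and counting intervals on opposite sides of 0. The difference between libraries was not tested. Myod1 in members over non-cycling satellite-gated barcodes had a log2 ratio of -0.47 in the AHRfl/fl library and 1.32 in the AHRmKO library. The non-cycling barcodes of the AHRmKO library held only 10 Myod1 UMIs. The other 9 are members over cycling leukocytes. Mcm6 had 0.36 and -0.70, and Pola1 had 0.27 and -0.35. Klf4 had -0.87 and 0.55, Camk1d -0.99 and 0.0633, and Acta1 -0.14 and 0.45. Gm48228 had 0.60 and -2.78, the second from only 2 UMIs in members and 18 in leukocytes. Genes that overlap an opposite-strand gene had 0.26 and -2.63 for Gm26936, 0.22 and -1.50 for Gm19710, and 0.70 and -2.37 for Gm28379. In the AHRmKO library these rested, in that order, on only 1, 6 and 1 UMIs in members and 11, 16 and 9 in leukocytes.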

How the results depend on the processing

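No paired analysis was possible because each group had 1 library, and for the same reason no replicate could be left out. Without the mitochondrial limit the AHRmKO library had 661 members. Members were 30.4% of satellite-gated barcodes in the AHRfl/fl library at a minimum of 1000 UMIs, and 39.4% and 63.4% in the 2 libraries at a minimum of 3000. Thinned to 2000 UMIs, they were 24.2% and 47.0%, S-phase UMIs were 31.4% and 34.9%, and the shares with a UMI were 8.08% and 5.16% for Myod1, 10.3% and 12.2% for Myf5, and 14.0% and 2.82% for Myog. The count of genes 2-fold or more higher in the AHRmKO members, 779 as reported, was 297 with 5 CPM added, 1244 with no minimum of UMIs, 480 at 50 UMIs or more, 2755 with the small-barcode profile subtracted at the share set by fibre genes, and 1424 at the share in cycling leukocytes. The share set by fibre genes was 30.5% and 53.6%, far above the 12.4% and 9.14% in cycling leukocytes. It treats all fibre-gene UMIs of the members as free RNA, which was not tested. In cycling leukocytes the 4 fibre genes summed to 1423 and 644 CPM, against 10527 and 8071 in small barcodes. The count lower, 2478, was 1171 with 5 CPM added, 1220 at 50 UMIs or more and 1323 without genes under an opposite-strand gene. Higher genes were 23.9% of these calls, 34.6% without opposite-strand genes, and 48.7% and 40.3% with the profile subtracted at the share set by fibre genes and at that in leukocytes. That last subtraction, at a share set by sarcomere genes, was added after the data were seen. It gave the opposite sign for the commitment and fusion median (0.62), the sarcomere median (1.90) and Mymk (1.37), and the cause was not tested. At the share set by fibre genes the imprinted growth median (-0.43) was 0.09 and the satellite identity median (-0.23) 0. Over all alternatives the kinetochore median (0.06) reached -0.0058 and the AHR pathway median (0.11) -0.09. Of 45 gene ratios under 13 alternatives, 512 of 585 values stayed within the counting interval and 24 had the opposite sign, most of them from ratios near 0. Besides Mymk, Myod1 (-0.48) was 1.44 with the profile subtracted at the leukocyte share and 5.08 at the share set by fibre genes, which set its AHRfl/fl level to 0, so that 5.08 depends on the CPM added. Of 18 genes past 2-fold, 12 stayed so throughout, and Aspm, Chek1, Mki67, Mymk, Myog and Pax3 did not. Depth limits low genes: 3 counts were 0.709 and 1.09 CPM of the members.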
